A study of Homo sapiens with 4 samples.

Results

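The NRF2 antioxidant programme was examined through 10 genes: the transcription factor NFE2L2 (NRF2), its repressor KEAP1, and 8 genes that NRF2 is known to activate (NQO1, HMOX1, GCLC, GCLM, TXNRD1, SRXN1, GSR and SLC7A11). The genes were chosen by name, with earlier results of these data known. All 10 were found among the 23228 gene symbols of the count tables. In unstressed cells KEAP1 holds NRF2 in a ubiquitin ligase built on CUL3, so that NRF2 is made and degraded continuously. When electrophiles or oxidants modify KEAP1, NRF2 accumulates, pairs with a small MAF protein and binds antioxidant response elements near genes that make glutathione, reduce thioredoxin, detoxify quinones and break down haem. The control of NRF2 is therefore largely on the protein, which RNA counts do not show. In glioma cells the programme is known for protection against oxidative and drug stress.

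RNA was sequenced from U87 MG, an established human glioblastoma line cultured with serum, 72 hours after oligofectamine transfection with siRNA against PELP1 or with a control siRNA. A small interfering RNA (siRNA) directs the cleavage of a matching mRNA, and PELP1 is a nuclear scaffold protein that binds nuclear receptors and takes part in ribosome assembly. Each group held 2 libraries, PELP1 siRNA libraries 1 and 2 and control libraries 1 and 2, all from the same line. The labels do not say how many siRNAs were used or what their sequences were, so an effect of losing PELP1 and another effect of the siRNA cannot be told apart. Nothing in the labels says that the libraries of a group came from separate cultures, so the p-values rest on the spread between these libraries alone, and that spread may be technical. Fewer cells that express a gene and less of its RNA per cell cannot be told apart in such bulk samples.

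Reads assigned to genes numbered 18670162 to 19389684 in the PELP1 siRNA libraries and 19662271 to 22858988 in the control libraries. PELP1 itself stood at 15.2 and 17.7 CPM (reads of the gene per 1000000 reads assigned to genes, with TMM scaling between libraries) with PELP1 siRNA, against 74.0 and 78.1 CPM with control siRNA. It fell by 78.4% (log2 fold change -2.21, SE 0.097, adjusted p = 8.32e-14). CDKN2A and CDKN2B, which U87 cells are known to have lost, had 0 counts in all 4 libraries. The mesenchymal markers VIM, CD44 and FN1 were abundant (1956 to 7140 CPM), and both they and NES were lower with PELP1 siRNA (adjusted p of 1.26e-06 to 8.73e-04). GFAP, S100B and SOX2 were at 0 to 1.84 CPM. Endothelial, oligodendrocyte, melanocyte and epithelial markers were each at or below 2.84 CPM, and PTPRC and CD3E at or below 0.0893 CPM, although CD68 stood at 385 to 427 CPM. The summed level of 4 neuronal markers was 49.5 and 51.3 CPM with PELP1 siRNA and 62.7 and 65.4 CPM with control siRNA. These markers did not move together. SNAP25 was lower (adjusted p = 9.03e-06) and RBFOX3 was at or below 0.102 CPM. SYT1 went the other way, at 18.3 and 19.4 CPM with PELP1 siRNA and 14.4 and 16.6 CPM with control siRNA (log2 fold change 0.28, adjusted p = 0.0608). The epithelial marker EPCAM was higher, at 1.68 and 1.53 CPM with PELP1 siRNA and 0.671 and 0.893 CPM with control siRNA (adjusted p = 0.0188). The part of these markers in the results was not tested.

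With PELP1 siRNA TXNRD1 fell by 55.4%, SLC7A11 fell by 45.3%, HMOX1 fell by 40.5% and GCLM fell by 26.6%, GSR and SRXN1 fell less, and NFE2L2, KEAP1, NQO1 and GCLC did not pass the threshold. All 10 genes passed the filter on low counts. Of them, 0 were higher and 6 lower with PELP1 siRNA at an adjusted p under 0.05 in edgeR's quasi-likelihood test, against 12.9% higher and 15.0% lower over all 13234 genes tested. The median log2 fold change of the 10 genes was -0.20, against 0.001 over all genes tested. Both PELP1 siRNA libraries lay below both control libraries for 8 of the 10 genes (32.3% of all genes tested) and above them for 1 (32.0%), which makes 9 whose groups did not overlap (64.2%). Of all called genes 53.6% were lower, and 41.3% with scaling by total counts alone, under which 4 of the 10 genes were lower. Without control library 1 or control library 2 the count of the 10 was also 4.

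**Figure D1:**
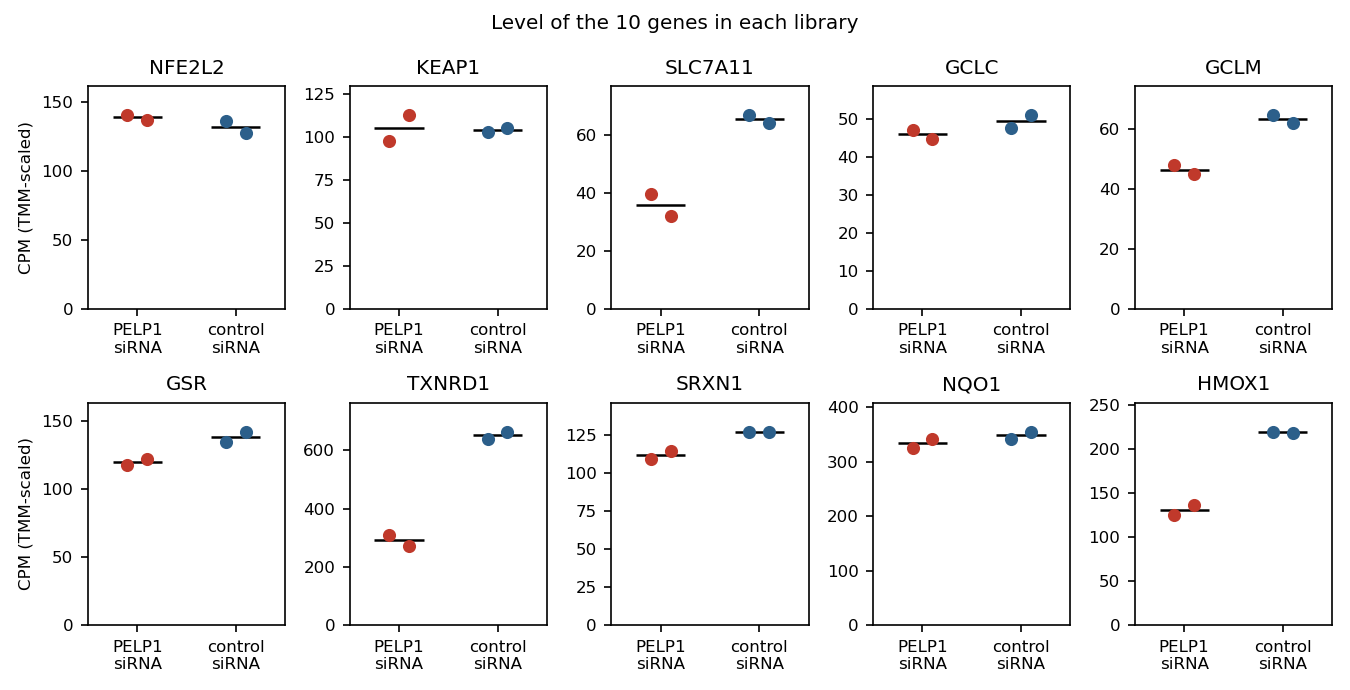
Level of each of the 10 genes (TMM-scaled CPM, linear axis from 0) in the 2 PELP1 siRNA libraries (red) and the 2 control libraries (blue); points are libraries and black lines group means. TXNRD1 lay at 273 and 309 CPM with PELP1 siRNA and at 639 and 665 CPM with control siRNA, whereas the NQO1 and NFE2L2 points lay close together.

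Neither regulator passed the threshold. NFE2L2 (GRCh37 chromosome 2, 178095036 to 178129455, minus strand) had 140.7 and 137 CPM with PELP1 siRNA and 136 and 128 CPM with control siRNA. Its PELP1 siRNA libraries lay just above its controls, by less than the test could call (log2 fold change 0.076, SE 0.068, 95% interval -0.066 to 0.217, adjusted p = 0.438). KEAP1 (GRCh37 chromosome 19, 10596801 to 10614032, minus strand) had 97.6 and 112.8 CPM with PELP1 siRNA, which straddled its 103 and 105 CPM with control siRNA. Its log2 fold change was 0.016 (95% interval -0.14 to 0.17, adjusted p = 0.897), and it was 0.12 without PELP1 siRNA library 1 and -0.087 without PELP1 siRNA library 2.

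The 4 genes of glutathione supply covered import of cystine, synthesis and reduction, and 3 of them passed the test. SLC7A11 (GRCh37 chromosome 4, 139085251 to 139163503, minus strand) encodes xCT, the exchanger that imports cystine for glutathione and is also a known target of the stress factor ATF4. It had 39.5 and 32.1 CPM with PELP1 siRNA (778 and 610 counts), against 67.0 and 64.1 CPM with control siRNA (1299 and 1436 counts). The libraries of a group were closer to each other than to any of the other group, and SLC7A11 fell by 45.3% (log2 fold change -0.87, SE 0.094, adjusted p = 2.37e-07). SLC7A11 shares 8.97% of the exon bases of its canonical transcript with SLC7A11-AS1 on the opposite strand, and whether the counting used strand is not stated.

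GCLC and GCLM encode the catalytic and the modifier subunit of glutamate-cysteine ligase, the rate-limiting enzyme of glutathione synthesis. GCLM (GRCh37 chromosome 1, 94350755 to 94374986, minus strand) had 47.9 and 44.8 CPM with PELP1 siRNA and 64.5 and 61.7 CPM with control siRNA. It fell by 26.6% (log2 fold change -0.45, SE 0.083, adjusted p = 2.71e-04). GCLC (GRCh37 chromosome 6, 53362139 to 53409899, minus strand) had 47.3 and 44.9 CPM with PELP1 siRNA and 47.8 and 51.2 CPM with control siRNA. Its libraries were nearly continuous between the groups (log2 fold change -0.10, 95% interval -0.28 to 0.07, adjusted p = 0.394). The ratio of GCLM to GCLC counts within a library, which no scaling of libraries can change, was 1.01 and 0.998 with PELP1 siRNA and 1.35 and 1.21 with control siRNA. The ratios of the groups did not overlap, but 2 libraries against 2 cannot give an exact two-sided permutation p below 0.333, which was the value obtained.

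GSR (GRCh37 chromosome 8, 30535583 to 30585363, minus strand) encodes glutathione reductase, which restores reduced glutathione with NADPH. It had 118 and 122 CPM with PELP1 siRNA and 134 and 142 CPM with control siRNA, and fell by 13.4% (log2 fold change -0.21, SE 0.069, adjusted p = 0.0259). The groups did not overlap. The log2 fold change of GSR stayed negative in every alternative fit, but its call was lost without control library 1 (adjusted p = 0.210), without control library 2 (0.441) and with scaling by total counts (0.0805).

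The thioredoxin arm held the largest change among the 10 genes. TXNRD1 (GRCh37 chromosome 12, 104609557 to 104744085, plus strand) encodes the cytosolic thioredoxin reductase, a selenoprotein that keeps thioredoxin reduced. It had 309 and 273 CPM with PELP1 siRNA (6090 and 5180 counts), against 639 and 665 CPM with control siRNA (12395 and 14892 counts). TXNRD1 fell by 55.4% (log2 fold change -1.16, SE 0.067, adjusted p = 8.75e-12), and 0.899% of all genes tested had a log2 fold change as low or lower. In each of the 12 alternative fits its log2 fold change lay between -1.25 and -1.07. The canonical transcript of TXNRD1 shares no exon bases with another annotated gene.

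SRXN1 (GRCh37 chromosome 20, 627259 to 633844, minus strand) encodes sulfiredoxin, which repairs overoxidised peroxiredoxins. It had 109 and 115 CPM with PELP1 siRNA and 127 and 128 CPM with control siRNA, and fell by 12.1% (log2 fold change -0.19, SE 0.069, adjusted p = 0.0477). The log2 fold change of SRXN1 was negative in all 12 alternative fits, of which 6 did not call it, with adjusted p of up to 0.400 (without control library 1) and 0.387 (without control library 2). SRXN1 shares 90.7% of its canonical exon bases with the overlapping gene ENSG00000270299 on the same strand, so its count is uncertain where a counter treats the pair as ambiguous.

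Promoter sequence was compared because NRF2 acts through antioxidant response elements, and the windows of GCLM, which fell, its partner GCLC, which did not pass, and TXNRD1, which fell most of the 10, are shown. Windows of 300 bases (250 before to 50 after an annotated start, RefSeq, build GRCh38.p14) were examined for 7 of the 10 genes. HMOX1 and SLC7A11 have no window here, and GSR was left out of the search by choice. The element's core, TGACNNNGC on either strand, stood in a window of 3 of the 7 genes (42.9%), against 16.1% of 27305 genes. Counted singly, 13.3% of 35116 windows held it. NFE2L2, KEAP1 and TXNRD1 have 2 windows each, and the shares of genes were not matched for the number of windows. Capitals mark the core, which reads GCNNNGTCA where it lies on the other strand, and none of the cores overlapped the AP-1 words TGACTCA or TGAGTCA.
GCLM, chr1:93909381-93909680, minus strand: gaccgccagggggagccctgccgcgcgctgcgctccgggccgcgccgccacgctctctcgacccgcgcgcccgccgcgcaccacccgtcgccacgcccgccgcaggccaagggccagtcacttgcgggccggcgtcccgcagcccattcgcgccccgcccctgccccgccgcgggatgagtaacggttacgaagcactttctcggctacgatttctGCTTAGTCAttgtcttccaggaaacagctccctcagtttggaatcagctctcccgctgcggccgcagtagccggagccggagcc
GCLC, chr6:53545052-53545351, minus strand: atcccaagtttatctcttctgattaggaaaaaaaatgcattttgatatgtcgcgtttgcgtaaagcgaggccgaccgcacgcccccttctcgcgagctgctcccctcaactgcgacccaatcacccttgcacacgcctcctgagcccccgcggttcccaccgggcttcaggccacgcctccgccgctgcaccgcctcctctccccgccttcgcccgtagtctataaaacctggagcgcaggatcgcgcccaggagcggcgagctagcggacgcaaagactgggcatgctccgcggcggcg
TXNRD1, upstream start, chr12:104215529-104215828, plus strand: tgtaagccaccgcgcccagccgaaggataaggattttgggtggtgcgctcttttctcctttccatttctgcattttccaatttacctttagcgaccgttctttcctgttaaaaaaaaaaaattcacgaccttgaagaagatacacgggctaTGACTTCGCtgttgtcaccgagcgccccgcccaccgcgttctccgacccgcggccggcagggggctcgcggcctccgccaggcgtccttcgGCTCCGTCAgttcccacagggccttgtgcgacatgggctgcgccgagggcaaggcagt
TXNRD1, downstream start, chr12:104286782-104287081, plus strand: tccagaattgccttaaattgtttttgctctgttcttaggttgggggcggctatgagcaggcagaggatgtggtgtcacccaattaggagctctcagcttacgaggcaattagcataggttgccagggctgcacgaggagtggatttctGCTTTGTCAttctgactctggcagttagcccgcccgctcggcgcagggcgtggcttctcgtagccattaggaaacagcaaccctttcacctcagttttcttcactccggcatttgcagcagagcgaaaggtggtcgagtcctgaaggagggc
GCLM holds 1 core, 34 to 26 bases before its start, and GCLC holds none in this window. TXNRD1 holds 2 cores at its upstream start and 1 at its downstream start, 102 to 94 bases before it. The third gene with a core was KEAP1, which did not pass the threshold and has 2 in 1 of its windows. No core was found in the windows of NFE2L2, NQO1, GCLC and SRXN1, which says only that these letters are not in these 300 bases. A match is a description of sequence, and NRF2 binding was not measured.

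NQO1 (GRCh37 chromosome 16, 69743304 to 69760463, minus strand), the quinone reductase often used as the readout of NRF2 activity, had 325 and 342 CPM with PELP1 siRNA and 342 and 355 CPM with control siRNA. The highest PELP1 siRNA library and the lowest control library were nearly equal, and the log2 fold change was -0.064 (95% interval -0.19 to 0.065, adjusted p = 0.476). It reached an adjusted p of 0.0459 without PELP1 siRNA library 2, at a log2 fold change of -0.096, and passed in none of the other 11 alternative fits. NQO1 shares 22.8% of its canonical exon bases with a non-coding gene on the opposite strand.

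HMOX1 (GRCh37 chromosome 22, 35777089 to 35790200, plus strand) encodes haem oxygenase 1, which breaks haem down to biliverdin, iron and carbon monoxide and is repressed by BACH1 at the sites that NRF2 uses. It had 125 and 136 CPM with PELP1 siRNA (2456 and 2576 counts), against 219 and 218 CPM with control siRNA (4253 and 4883 counts). All PELP1 siRNA values lay far below the controls, which differed by little, and HMOX1 fell by 40.5% (log2 fold change -0.75, SE 0.067, adjusted p = 1.43e-08). Over the 12 alternative fits the log2 fold change lay between -0.81 and -0.68.

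**Figure D2:**
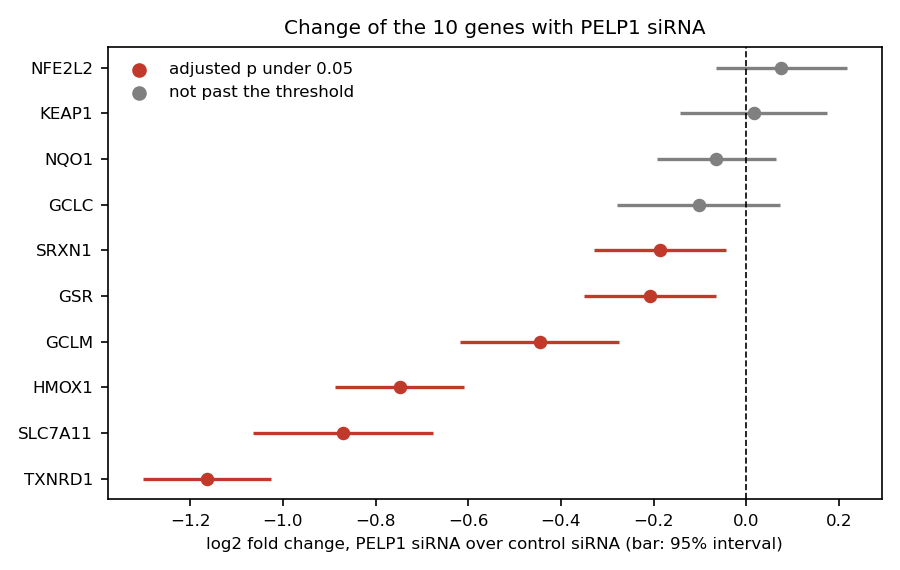
Log2 fold change of each gene, PELP1 siRNA over control siRNA, with its 95% interval from the quasi-likelihood fit; red marks an adjusted p under 0.05, grey the genes not past the threshold and the dashed line no change. TXNRD1 (-1.16), SLC7A11 (-0.87), HMOX1 (-0.75) and GCLM (-0.45) lie to the left, and the intervals of NFE2L2, KEAP1, NQO1 and GCLC cross 0.

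Levels of different genes were compared per kilobase of canonical transcript. With PELP1 siRNA NQO1 stood highest at 132 CPM per kilobase, followed by HMOX1 at 83.8, TXNRD1 at 75.4, NFE2L2 at 56.8, SRXN1 at 44.3, KEAP1 at 41.0 and GSR at 39.5. GCLC at 12.2, GCLM at 9.49 and SLC7A11 at 3.71 CPM per kilobase were the lowest. With control siRNA TXNRD1 came first at 169 CPM per kilobase, before HMOX1 at 141, NQO1 at 138, NFE2L2 at 53.9, SRXN1 at 50.4, GSR at 45.6 and KEAP1 at 40.5, with GCLC at 13.1, GCLM at 12.9 and SLC7A11 at 6.80 again lowest. TXNRD1 thus held the first place of the 10 with control siRNA and the third with PELP1 siRNA. Neighbours whose libraries overlapped were SRXN1 with KEAP1 and KEAP1 with GSR under PELP1 siRNA, and HMOX1 with NQO1 and GCLC with GCLM under control siRNA. HMOX1 (80.2 and 87.3 CPM per kilobase) and TXNRD1 (80.1 and 70.7) were next to each other under PELP1 siRNA.

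Ratios of counts within a library set the genes against their partners without any scaling between libraries. Counts were not divided by transcript length, which is 3860 bases for TXNRD1 and 737 bases for TXN. A ratio can therefore be compared between libraries but does not say which gene of a pair is more abundant. TXNRD1 counts were 1.56 and 1.21 times those of its substrate thioredoxin, TXN, with PELP1 siRNA, and 3.01 and 3.03 times with control siRNA. SLC7A11 counts were 0.214 and 0.167 of those of SLC3A2, the heavy chain that anchors xCT in the membrane, with PELP1 siRNA and 0.270 and 0.248 with control siRNA. The KEAP1 to NFE2L2 ratio was 0.694 and 0.821 with PELP1 siRNA and 0.756 and 0.822 with control siRNA, and its groups overlapped (exact two-sided permutation p = 0.667). A pair of ratios to NQO1 was added after the values were seen. TXNRD1 to NQO1 was 0.950 and 0.799 with PELP1 siRNA and 1.87 in both control libraries, and HMOX1 to NQO1 was 0.383 and 0.397 with PELP1 siRNA and 0.642 and 0.613 with control siRNA. The ratios whose groups did not overlap each gave the smallest p that the design allows (0.333), and for single genes 64.2% of those tested did not overlap.

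**Figure D3:**
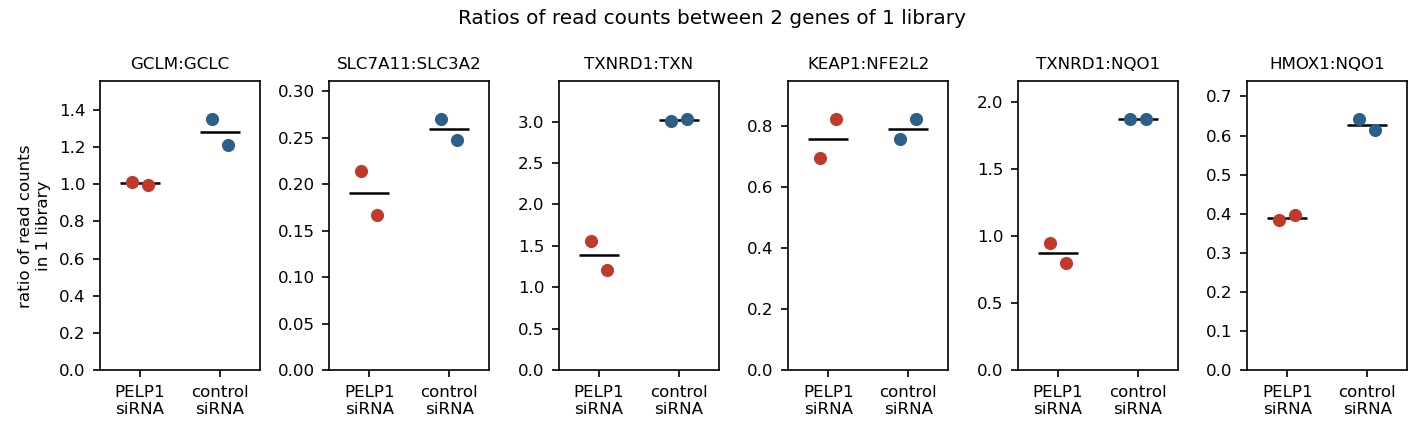
Ratio of the read counts of a pair of genes in each library (linear axes from 0), with the 2 PELP1 siRNA libraries in red, the 2 control libraries in blue and group means as lines. The TXNRD1:TXN ratio lies at 1.21 and 1.56 with PELP1 siRNA and at 3.01 and 3.03 with control siRNA, and the KEAP1:NFE2L2 ratio overlaps.

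Genes around the 10 moved in both directions. Across 6 lists with 125 genes in all, 114 were tested, 22 of them higher (19.3%, against 12.9% of all genes tested) and 28 lower (24.6%, against 15.0%). Only 19 of these 50 calls held in every alternative fit, and 31 were lost in at least 1 fit that left out a control library. A call is said to hold where every alternative fit that tested the gene made it.

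Among 22 regulators and partners of NRF2, 4 were higher (18.2%, against 12.9% of all genes tested), 7 lower (31.8%, against 15.0%) and 11 did not pass, with a median log2 fold change of -0.14. The mRNAs of all 3 small MAF proteins, with which NRF2 pairs to bind DNA, fell. MAFF had 19.9 and 22.0 CPM with PELP1 siRNA and 49.0 and 51.6 CPM with control siRNA (log2 fold change -1.26, SE 0.095, adjusted p = 7.32e-10). MAFK fell by 0.69 and MAFG by 0.44 on the log2 scale (adjusted p = 8.93e-06 and 6.78e-05), and all 3 calls held. These proteins also pair with BACH1, which was at 56.2 and 44.3 CPM with PELP1 siRNA and 54.6 and 54.8 CPM with control siRNA (adjusted p = 0.362). SQSTM1, whose p62 protein binds KEAP1 and is itself an NRF2 target, had 1285 and 1391 CPM with PELP1 siRNA and 1906 and 1876 CPM with control siRNA (log2 fold change -0.50, adjusted p = 1.22e-06). SQSTM1 shares 55.7% of its canonical exon bases with MRNIP on the opposite strand. CUL3, the scaffold of the KEAP1 ligase, rose by 0.23 on the log2 scale (adjusted p = 0.0107), as did BTRC, an adaptor of another ligase that marks NRF2 for degradation, by 0.35 (adjusted p = 0.00605), and PARK7 by 0.20 (adjusted p = 0.0237). These 3 rises were lost without either control library. RBX1, the RING subunit of the ligase, had 74.1 and 81.3 CPM with PELP1 siRNA and 70.7 and 73.0 CPM with control siRNA (adjusted p = 0.300).

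Genes of glutathione use and turnover counted 23 after the filter: 3 higher (13.0%, near the 12.9% of all genes tested), 8 lower (34.8%, against 15.0%) and 12 not past the threshold, with a median of -0.13. SLC3A2 had 184 and 192 CPM with PELP1 siRNA and 248.5 and 259 CPM with control siRNA (log2 fold change -0.43, SE 0.064, adjusted p = 2.12e-05), so both chains of the cystine exchanger fell. GLRX, a glutaredoxin that removes glutathione from proteins, fell by 0.49 (adjusted p = 1.23e-05), and both calls held. CTH, which makes cysteine from cystathionine, fell by 0.58 (adjusted p = 0.00286, and 0.0884 without control library 2). GGCT, an enzyme of the breakdown of gamma-glutamyl peptides, rose by 0.73 (adjusted p = 6.56e-07) and held. GGCT shares 38.1% of its canonical exon bases with an overlapping gene on the same strand. GLO1, which clears methylglyoxal with glutathione, rose by 0.35 (adjusted p = 5.26e-04, and 0.0668 without control library 2), and GLRX5 rose by 0.32 (adjusted p = 0.00689), a call lost without either control library. GSS, the second enzyme of glutathione synthesis, was named after its values were seen and stood at 120 and 127 CPM with PELP1 siRNA and 131 CPM in both control libraries (adjusted p = 0.369).

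The genes around TXNRD1 include thioredoxins, peroxiredoxins and sestrins. The test called 3 of 19 higher and 3 lower (15.8% each), leaving 13, with a median of 0.14, and these shares are near the 12.9% and 15.0% of all genes tested. TXN had 198 and 225 CPM with PELP1 siRNA and 212.5 and 219.5 CPM with control siRNA (log2 fold change -0.032, adjusted p = 0.762). The mitochondrial thioredoxin TXN2 rose by 0.37 (adjusted p = 8.68e-04), SESN3 by 0.94 (adjusted p = 0.00407) and the methionine sulfoxide reductase MSRB2 by 0.36 (adjusted p = 0.0353). SESN3 was at a low level, 2.94 and 3.32 CPM with PELP1 siRNA and 1.70 and 1.56 CPM with control siRNA. DESeq2 did not call SESN3 or MSRB2. MSRB3 fell by 0.43 (adjusted p = 0.00130), the thioredoxin-binding TXNIP by 0.27 (adjusted p = 0.00562) and SESN2 by 0.32 (adjusted p = 0.00877). Each of these 6 calls was lost in a fit without 1 control library. None of the 6 peroxiredoxins (PRDX1 to PRDX6) passed the threshold in edgeR's test, with PRDX3, PRDX4 and PRDX5 at an unadjusted p under 0.05.

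For quinone, carbonyl, haem and iron handling, the test called 7 of 27 genes higher and 7 lower (25.9% each, against 12.9% and 15.0% of all genes tested), leaving 13, with a median of 0.078. Of its 6 aldo-keto reductases, some of them NRF2 targets in human cells, 4 rose (AKR1B1, AKR1B10, AKR1C2 and AKR1C3), AKR1A1 fell by 0.33 on the log2 scale (adjusted p = 0.00867) and AKR1C1 did not pass (log2 fold change -0.12, adjusted p = 0.184). The calls of AKR1A1 and AKR1C2 were lost without either control library. AKR1B10 had 38.7 and 43.1 CPM with PELP1 siRNA and 23.0 and 22.9 CPM with control siRNA (log2 fold change 0.83, SE 0.095, adjusted p = 5.03e-07). AKR1C3 rose by 0.76 (adjusted p = 1.43e-06) and AKR1B1, at 5703 and 6083 CPM with PELP1 siRNA and 4607 and 4682 CPM with control siRNA, by 0.34 (adjusted p = 9.43e-05), and these calls and that of AKR1B10 held. The AKR1C genes are related in sequence to different degrees, so the division of reads among them is uncertain. UGDH, which makes UDP-glucuronate, had 50.3 and 47.7 CPM with PELP1 siRNA and 94.4 and 98.4 CPM with control siRNA (log2 fold change -0.98, SE 0.077, adjusted p = 1.91e-09). The conjugate exporter ABCC3 fell by 0.53 (adjusted p = 6.22e-05) and the haem transporter SLC48A1 by 0.68 (adjusted p = 6.76e-05), and these falls held. The biliverdin reductases BLVRA and BLVRB did not pass. BLVRA stood at 49.3 and 55.7 CPM with PELP1 siRNA and 47.7 and 51.2 CPM with control siRNA (adjusted p = 0.50). BLVRB stood at 81.6 and 89.7 CPM with PELP1 siRNA and 96.5 and 97.4 CPM with control siRNA (adjusted p = 0.0774).

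NADPH feeds both GSR and TXNRD1. In its supply the test called 4 of 13 genes higher (30.8%, against 12.9% of all genes tested) and 2 lower (15.4%, near the 15.0% of all genes), leaving 7, with a median of 0.10. IDH1 had 196 and 183 CPM with PELP1 siRNA and 142 and 144 CPM with control siRNA (log2 fold change 0.41, SE 0.067, adjusted p = 6.38e-05). TKT, the transketolase of the pentose phosphate pathway, rose by 0.37 (adjusted p = 7.54e-05), and both calls held. IDH2 rose by 0.31 (adjusted p = 0.0139), which was lost without either control library. RPIA fell by 0.47 (adjusted p = 0.00164, and 0.0971 without control library 1). TALDO1 fell by 0.20 (adjusted p = 0.0455), a call that 6 of 12 alternative fits did not make.

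**Figure D4:**
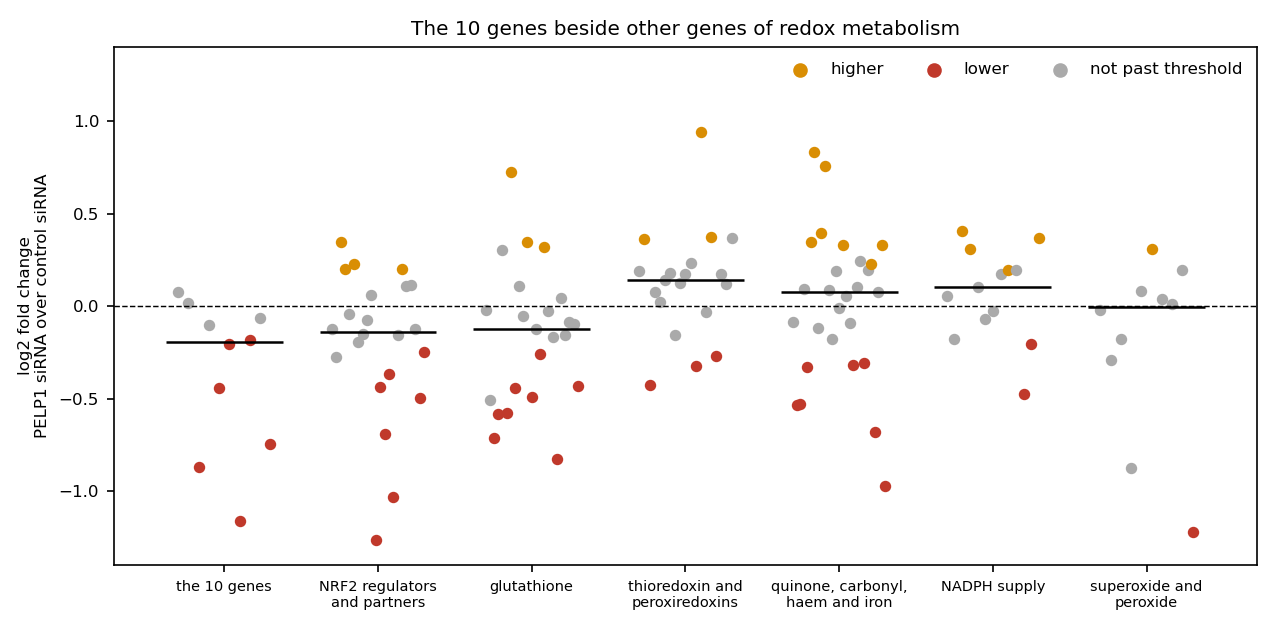
Log2 fold change, PELP1 siRNA over control siRNA, of the 10 genes and of the tested genes of 6 lists; each point is a gene (orange higher, red lower, grey not past an adjusted p of 0.05) and black lines are medians. The 10 genes have a median of -0.20 and no orange point, and the lists have medians between -0.14 and 0.14.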

How the data were processed

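RNA-seq libraries came from U87 cells 72 hours after transfection, per the labels' protocols. CASAVA 1.8.2, TopHat2 2.0.8b and HTSeq are the tools, and hg19 (GRCh37) the genome, named in the submitters' processing notes. Each deposited file holds raw counts by gene symbol, with no normalization by the authors. Neither the strand setting nor the annotation release is stated there. The counter's 5 summary lines (36.0 to 37.6% of all counts) were left out.

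Counts were scaled by TMM and filtered with filterByExpr (minimum count 10, total 15). The test was edgeR's quasi-likelihood test (version 4.0.16, in R 4.3.3) with robust fitting. Group was its sole covariate, and Benjamini-Hochberg adjustment ran over all 13234 genes that passed. Every adjusted p is from this test unless another is named. CPM are TMM-scaled, errors of fold changes are standard errors, and the spread between libraries beyond counting error had a biological coefficient of variation of 5.23%. The script was tested on simulated data. Alternatives were DESeq2 1.42.0, limma-voom (limma 3.58.1), other scalings and filters, a replicate block and leaving out each library.

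Positions and transcript lengths are from GENCODE (v44lift37). The 10 genes and the lists were chosen with earlier results of these data known. Besides the 10 genes and PELP1, the text names up to 3 called genes per list and direction, taken in order of adjusted p, and direct partners of the 10 whatever their values. AKR1A1, AKR1C1, AKR1C2, the peroxiredoxins, GSS, SOD1, SOD2 and CAT are named outside this rule. Other called genes of the lists are not named. A gene of the glutathione list enters the list counts, but its own values are not reported here.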

Additional observations from a re-analysis of the deposited data

How the results depend on the processing

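TXNRD1, SLC7A11, HMOX1 and GCLM were lower in each of the 12 alternative fits, GCLM with an adjusted p of up to 0.0372 (without control library 1). SRXN1 was called in 6 and GSR in 9 of 12. NFE2L2, KEAP1 and GCLC were called in none and NQO1 in 1. The count of the 10 genes called lower was 4 to 7 over the fits that left out 1 library, and 0 were higher in any fit. Over those fits the genes called numbered 523 to 2724 higher and 943 to 2804 lower, and the list genes 6 to 37 higher and 17 to 41 lower, with the low values when a control library was left out. A lone library was taken to vary like the other group. The 2 PELP1 siRNA libraries differed more from each other than the 2 control libraries did (chi-square per gene of 7.06 and 2.09). Fits without a control library took their spread from the PELP1 siRNA pair alone. Fits without a PELP1 siRNA library took it from the control pair. DESeq2 called 1133 genes higher.

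The replicate numbers mark no shared culture or day in the labels, and same-numbered libraries did not deviate together (r = -0.041 over genes tested). With the number as a replicate block, 1613 genes were higher and 1968 lower, 5 of the 10 genes were lower and 0 higher, and 22 list genes were higher and 28 lower. Of the 10 genes, SRXN1 alone was called in the main test but not with the block (adjusted p = 0.0781 with the block).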

Other observations

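A further list held 16 genes of superoxide and peroxide handling. Of these 10 were tested, 1 was higher, 1 lower and 8 did not pass, with a median log2 fold change of -0.006, against 12.9% higher and 15.0% lower over all genes tested. SOD1 (262 and 285 CPM with PELP1 siRNA, 266 and 267 CPM with control siRNA), SOD2 (483 and 430 CPM, against 457 and 451 CPM) and catalase, CAT (47.9 and 51.4 CPM, against 48.8 and 51.9 CPM), overlapped between groups, with adjusted p of 0.718 to 0.932. PON2, a lactonase of intracellular membranes, rose by 0.31 on the log2 scale (adjusted p = 0.00139), a call lost without either control library. XDH, xanthine dehydrogenase, had 0.914 and 1.26 CPM with PELP1 siRNA and 2.89 and 2.23 CPM with control siRNA (log2 fold change -1.22, SE 0.28, adjusted p = 0.00199), and all 11 alternative fits that tested it called it. SOD1, SOD2 and CAT were chosen for mention after their values were seen.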
